A study of Mus musculus with 183 samples.

Results

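The genes described here are 10 imprinted genes of the mouse, Peg10, Sgce, Peg3, Mest, Igf2, H19, Plagl1, Impact, Snrpn and Zrsr1, out of 53380 genes counted in an actinomycin D experiment on mouse embryonic stem cells (mESCs). They were selected on their measured levels and half-lives in these same libraries, because the mock levels of several of them differ between clones and days. Their levels, changes and half-lives are therefore given as a description, and the calls from the test across all genes are read only beside the share of all genes called. All 10 had enough counts to enter every comparison. In the Gencode annotation 9 of them are protein coding, and H19 is listed as a long noncoding RNA.

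The study asks how RNA is degraded in mESCs, a male line of mixed 129 and C57BL/6 origin grown in serum and LIF, and which RNAs depend on the helicase SKIV2L and its partner AVEN. The half-life experiment holds 47 libraries from 2 clones, each a single clone. Clone 5F carries Rosa26Cre-ERT2/- and Skiv2lfl/fl. Clone 7E carries Rosa26Cre-ERT2/BirA-V6, tagged Skiv2l (3xFLAG-Avi on both alleles) and Aven-/-, and the study's methods also give it floxed Skiv2l and write BirA-V5 for the Rosa26 allele. In both, 4-hydroxytamoxifen (4OHT, 0.1 µM) activates Cre, which removes exons of Skiv2l between the loxP sites. Libraries were made at day 0 and day 4 of 4OHT, from cells in DMSO (mock, 0 min) or after 120, 240 or 360 min of actinomycin D, an inhibitor of transcription. Each group has 3 libraries, except clone 5F at day 0 and 120 min with 2, and the study calls these replicates technical. Their SDs and SEs leave out any variation among cultures. A difference between the clones cannot be told apart from a difference between their genotypes.

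Each library held 24440935 to 34114250 counts. Skiv2l, the gene that Cre targets, had a mean of 4163 normalized counts in the day 0 mock libraries of clone 5F and 4134 in those labelled day 4, so the deletion was not visible at the level of the gene and these are called the libraries labelled day 4. In clone 7E it had 969.5 normalized counts at day 0 and 387.5 at day 4. Aven had 1004 normalized counts in clone 5F at day 0 and 66.9 in clone 7E at day 0. Normalized counts are counts divided by a size factor set within each time point, and after actinomycin D also multiplied by the share of mRNA left relative to spike-in RNA (ERCC). Of 8 markers of embryonic stem cells, all averaged at least 1 CPM (counts scaled to the library total) in every group. In the mock libraries the ratio of mRNA to ERCC counts was 348.5 ± 14.5 (SD, n = 3) in clone 5F at day 0, 340.9 ± 15.3 in its libraries labelled day 4, 318.9 ± 5.6 in clone 7E at day 0 and 153.1 ± 2.3 in clone 7E at day 4. Fewer cells and less RNA per cell cannot be told apart from this ratio. Fold and log2 changes in mock level below are relative to the median gene, unless scaling to each library's own ERCC counts is named.

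An imprinted gene is read mainly from the copy inherited from one parent, because DNA methylation laid down in one germ line silences the other copy or a control element beside it. In early embryos and mESCs, ZFP57 keeps this methylation by binding the methylated motif TGCCGC and recruiting TRIM28 (KAP1). Imprints are known to be lost or gained at single loci during mESC culture, and clones of one line can differ. RNA counts without allele information, as here, show the summed output of both copies. Of the 10 genes, H19 is known as maternally expressed and the others as paternally expressed.

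The members lie at 8 loci (GRCm38). Peg10 (chromosome 6, 4747306 to 4760517) and Sgce (chromosome 6, 4674350 to 4747207) point away from each other with starts 99 bases apart. Igf2 (chromosome 7, 142650766 to 142666816) and H19 (chromosome 7, 142575529 to 142578143) have starts 88.7 kb apart. Peg3 (6703892 to 6730431) and Snrpn (59982495 to 60140219) also lie on chromosome 7, Mest on chromosome 6 (30723547 to 30748465), Plagl1 on chromosome 10 (13060504 to 13131694) and Zrsr1 on chromosome 11 (22972005 to 22976496). Impact lies apart from these. Zrsr1 lies inside Commd1, on the opposite strand. The libraries do not keep the strand, so reads of Zrsr1 and of Commd1 RNA across it cannot be told apart. Other genes cover 64.5% of the exonic bases of Igf2, 34.1% of those of Snrpn, 23.1% of those of Mest and 9.17% of those of Zrsr1, and reads there are ambiguous in the counting.

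Promoter windows from RefSeq (GRCm38.p6, 250 bases before to 50 after a start) were found for 6 of the members, in 14 windows. Peg10, Sgce, H19 and Impact had no window in the set searched. Whether RefSeq holds a window for Impact was not tested, so the counts below leave Impact out. A window of each of 4 members is shown because they span the range of behaviour described below: Plagl1 moved with day in both clones, Mest hardly moved, Snrpn differed mainly between clones, and Zrsr1 had a short half-life. Capitals mark TGCCGC or its complement GCGGCA, which was searched on both strands.
Plagl1, chr10:13090582-13090881, plus strand: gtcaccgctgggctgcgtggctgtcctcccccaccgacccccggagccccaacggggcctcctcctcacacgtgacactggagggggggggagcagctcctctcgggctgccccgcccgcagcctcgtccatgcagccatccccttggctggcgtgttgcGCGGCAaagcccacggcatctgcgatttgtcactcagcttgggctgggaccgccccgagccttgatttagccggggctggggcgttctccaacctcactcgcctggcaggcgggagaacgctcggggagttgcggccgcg
Mest, chr6:30737800-30738099, plus strand: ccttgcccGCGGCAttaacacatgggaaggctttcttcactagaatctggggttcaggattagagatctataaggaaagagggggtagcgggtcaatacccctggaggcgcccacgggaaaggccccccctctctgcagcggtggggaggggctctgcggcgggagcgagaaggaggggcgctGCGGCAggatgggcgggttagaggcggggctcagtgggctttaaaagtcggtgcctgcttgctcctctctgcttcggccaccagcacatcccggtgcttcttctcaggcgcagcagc
Snrpn, chr7:60005150-60005449, minus strand: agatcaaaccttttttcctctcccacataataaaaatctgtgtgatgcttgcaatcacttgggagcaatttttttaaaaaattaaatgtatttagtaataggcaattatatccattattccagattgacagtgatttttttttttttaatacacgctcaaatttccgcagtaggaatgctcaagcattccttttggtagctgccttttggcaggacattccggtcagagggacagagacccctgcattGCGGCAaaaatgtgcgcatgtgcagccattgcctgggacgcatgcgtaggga
Zrsr1, chr11:22971755-22972054, plus strand: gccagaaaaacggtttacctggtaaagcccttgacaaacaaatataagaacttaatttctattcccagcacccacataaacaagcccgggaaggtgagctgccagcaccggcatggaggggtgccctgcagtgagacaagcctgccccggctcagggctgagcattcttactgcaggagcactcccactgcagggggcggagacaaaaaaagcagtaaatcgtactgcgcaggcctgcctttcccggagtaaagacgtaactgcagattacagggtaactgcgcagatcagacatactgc
The Mest window shown held 2 matches, the Plagl1 and Snrpn windows shown 1 each, and that of Zrsr1 none. Of the 3 Mest windows in the table, that at 30733256 to 30733555 held no match, and neither did 3 of the 4 Snrpn windows, so the Mest and Snrpn windows shown are ones that hold the motif. A match was found in 5 of the 14 member windows, of which 2 are overlapping Mest windows, and in 11.6% of the 32851 promoter windows in the table. Of those shown, the Plagl1 window held 26 CpG dinucleotides, Mest 17, Zrsr1 10 and Snrpn 7, against a median of 7 over all windows. A match is a description of letters, not a binding site.

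Per length, the members covered a wide range of levels. In TPM, counts per exonic length scaled to the library's sum, Impact, a regulator of the kinase GCN2, averaged 204 over the 12 mock libraries and Igf2, a fetal growth factor, 0.391. Among 16226 genes with at least 10 counts on average, these lay at the percentiles 95.1 and 3.5. In clone 5F at day 0 the order was Impact (212 ± 7.6 TPM, SD, n = 3), Snrpn (178 ± 12), Peg10 (178 ± 3.5), Mest (93.8 ± 1.2), Peg3 (29.6 ± 1.1), Zrsr1 (8.4 ± 0.33), Plagl1 (3.14 ± 0.13), H19 (2.43 ± 0.34), Sgce (1.18 ± 0.11) and Igf2 (0.377 ± 0.076). Snrpn and Peg10 overlapped there, and no other neighbours did. The order changed for Peg10. It led in the 5F libraries labelled day 4 (230 ± 7.4 TPM), where it overlapped Impact (214 ± 11). In clone 7E at day 0 it stood behind Mest (70.9 ± 2.3 against 101 ± 2.4), and in clone 7E at day 4 only behind Impact (173 ± 7). Sgce, which shares its promoter region with Peg10, stood below H19 and above Igf2 in each group, and overlapped H19 in clone 7E at day 0 only.

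**Figure D1:**
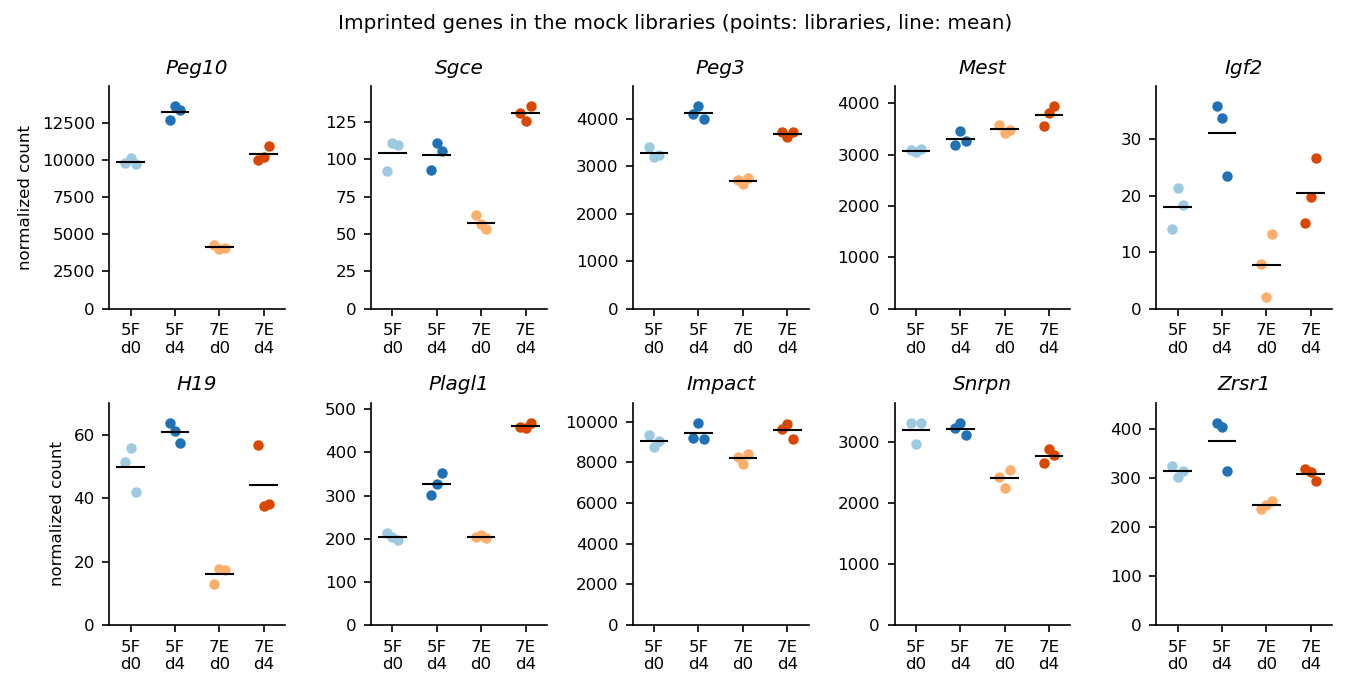
Normalized counts of the 10 imprinted genes in the 12 mock libraries, with a linear axis from 0 for each gene, points for libraries and a line for the mean of 3. Peg10, Sgce, H19 and Igf2 are lowest in clone 7E at day 0, and Mest varies little.

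Peg10, a gene derived from a retrotransposon gag-pol sequence that is needed for the placenta, was lowest in clone 7E at day 0. Its mock libraries there gave 4287.3, 4029.9 and 4084.5 normalized counts. Clone 5F at day 0 gave 9767.0, 10121.0 and 9684.1, and clone 7E at day 4 gave 9961.0, 10216.3 and 10939.3. The 5F libraries labelled day 4 were the highest, with 12646.2, 13600.4 and 13333.2. Only the values of clone 5F at day 0 and of clone 7E at day 4 overlapped. At day 0 Peg10 was 2.38-fold lower in clone 7E than in clone 5F (log2 -1.25 ± 0.05, SE). Within clone 7E it was 2.51-fold higher at day 4 than at day 0 (log2 1.33 ± 0.05), and within clone 5F 1.34-fold higher in the libraries labelled day 4 (log2 0.42 ± 0.04). With each library scaled to its own ERCC counts these changes were log2 0.23 and 0.35, and both still passed the test. Clone 7E at day 0 was also lower than clone 5F at day 0 in the actinomycin D libraries, which start from the mock levels and are not independent of them. After 120 min of actinomycin D it had a mean of 3621 normalized counts of Peg10, against 8973 in clone 5F at day 0, and after 360 min 2796 against 6980.

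Sgce encodes epsilon-sarcoglycan, a membrane protein. Its normalized counts were near 100, so its errors are larger. Clone 5F had 92.5, 111.0 and 109.3 at day 0 and 92.7, 111.0 and 105.7 in the libraries labelled day 4, which overlapped. Clone 7E had 62.5, 56.7 and 53.0 at day 0 and 131.1, 126.0 and 135.6 at day 4, so that its day 4 libraries lay above and its day 0 libraries below all those of clone 5F. The change in clone 7E was 2.28-fold (log2 1.19 ± 0.15), and the clones differed at day 0 by log2 -0.86 ± 0.14. With each library scaled to its own ERCC counts the change in clone 7E was log2 0.09 and did not pass the test. Peg10 and Sgce thus moved in the same direction in clone 7E, but only Peg10 passed the test in clone 5F. Whether the 2 genes differ in this was not tested. The ratio of Peg10 to Sgce counts was 72.2 ± 4.3 (SD, n = 3) in clone 7E at day 0 and 79.3 ± 2.8 at day 4, against 95.1 ± 9.1 and 128 ± 7.2 in clone 5F.

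Plagl1, a zinc finger transcription factor that regulates other imprinted genes, overlapped between the clones at day 0 (log2 0.00 ± 0.09, not called). It had 213.3, 204.8 and 196.1 normalized counts in clone 5F and 203.5, 209.1 and 202.0 in clone 7E. Relative to the median gene it was higher at day 4 in both. In clone 7E the day 4 libraries had 458.4, 457.1 and 468.7 normalized counts, 2.25-fold above day 0 (log2 1.17 ± 0.09). In clone 5F the libraries labelled day 4 had 300.9, 327.7 and 351.9, which is 1.60-fold above day 0 (log2 0.67 ± 0.09). With each library scaled to its own ERCC counts the change was log2 0.07 in clone 7E, which did not pass. In clone 5F it was log2 0.61, which did.

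H19 and Igf2 are neighbours that share enhancers, and methylation of a control region between them decides which is read from which parental copy. Both were rare. H19 had 51.3, 55.9 and 41.9 normalized counts in clone 5F at day 0, but 12.9, 17.6 and 17.3 in clone 7E at day 0 and 56.9, 37.5 and 38.2 in clone 7E at day 4. At day 0 it was thus 3.12-fold lower in clone 7E (log2 -1.64 ± 0.24), and its change with day in clone 7E was log2 1.46 ± 0.27. Igf2 had 14.1, 21.4 and 18.4 normalized counts in clone 5F at day 0, 7.9, 2.0 and 13.3 in clone 7E at day 0, and 15.2, 19.8 and 26.7 in clone 7E at day 4. Both genes were lowest in the same group. With counts this low the errors of Igf2 were large (log2 1.42 ± 0.42 with day in clone 7E), and its antisense gene shares its exons. With own ERCC counts the changes of H19 and Igf2 with day in clone 7E were log2 0.37 and 0.34, and neither passed.

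Peg3, a zinc finger protein, showed smaller differences of the same order. It had 3412.3, 3191.6 and 3229.4 normalized counts in clone 5F at day 0 and 2719.9, 2622.8 and 2744.1 in clone 7E at day 0. It was 1.37-fold higher at day 4 in clone 7E (log2 0.45 ± 0.05) and 1.26-fold higher in the 5F libraries labelled day 4 (log2 0.33 ± 0.05). With own ERCC counts its change in clone 7E was log2 -0.64. Snrpn, which encodes the splicing protein SmN, differed mainly between clones. It had 3314.7, 2964.7 and 3315.2 normalized counts in clone 5F at day 0 against 2418.1, 2251.4 and 2546.2 in clone 7E (log2 -0.41 ± 0.05), and its change with day was log2 0.21 ± 0.06 in clone 7E and 0.01 ± 0.05 in clone 5F.

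Impact, Zrsr1 and Mest showed small differences. Impact (chromosome 18, 12955852 to 12992950) had between 7927.9 and 9945.3 normalized counts in all 12 mock libraries. Zrsr1, a relative of a U2 splicing factor, had 324.9, 302.6 and 314.6 in clone 5F and 236.3, 245.3 and 254.0 in clone 7E at day 0, and was 1.26-fold higher at day 4 in clone 7E (log2 0.33 ± 0.09). Mest, a protein of the hydrolase family, was the exception in direction. It was 1.14-fold higher in clone 7E than in clone 5F at day 0 (log2 0.18 ± 0.05), whereas the 8 other members that passed the test were lower, and with each library scaled to its own ERCC counts its difference was log2 0.02 and did not pass.

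**Figure D2:**
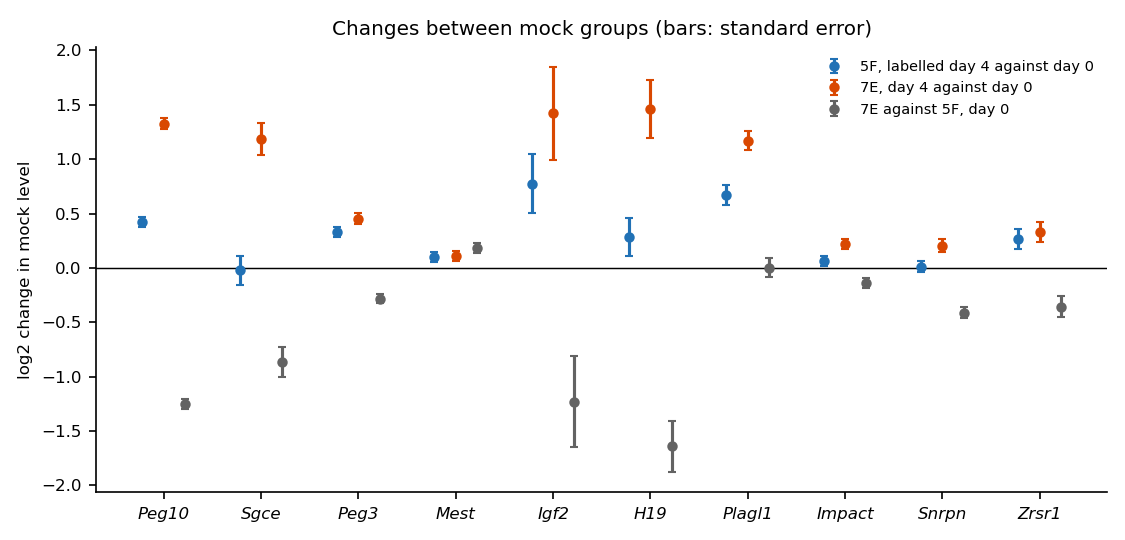
The log2 change in mock level of each member in 3 comparisons, with bars for the standard error of edgeR's fit. In clone 7E against clone 5F at day 0, Mest is above 0, Plagl1 is at 0.00 and the others are below 0. The orange and grey points share the day 0 libraries of clone 7E.

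Across all genes, edgeR's quasi-likelihood test (Benjamini-Hochberg threshold of 0.05) called 40.1% of genes between day 4 and day 0 in clone 7E, and 9 of the 10 members, all of them higher at day 4 relative to the median gene, as were 20.7% of all genes. Mest was not called. The median log2 change was 0.81 for the members and -0.01 for all genes. With each library scaled to its own ERCC counts the median gene moved by log2 -1.11, 91.9% of all genes were called and 90.5% were called lower, and the members ranged from 0.37 (H19) to -0.99 (Mest), with Peg10 at 0.23 and only Peg10 called higher, so relative to the ERCCs 5 members (Peg3, Mest, Impact, Snrpn, Zrsr1) were called lower. In clone 5F the test called 24.5% of all genes, and Peg10, Peg3, Igf2, Plagl1 and Zrsr1 were higher in the libraries labelled day 4, as were 12.8% of all genes. The calls of Igf2 and Zrsr1 there were lost with DESeq2, own ERCCs (20.8% of all genes called), a replicate block, or without replicate 1 or 2, and that of Igf2 also without replicate 3 or with both clones fitted together. At day 0 the test called 36.2% of all genes between the clones, with 8 members lower and 1 higher in clone 7E, where 18.1% of all genes were lower. Without replicate 1, Igf2, Impact, Mest and Zrsr1 were no longer called, which leaves 5. The day effect differed between the clones for 11.9% of all genes and for Peg10, Sgce, H19 and Plagl1, each with a larger change upward in clone 7E relative to the median gene, as for 6.64% of all genes. With own ERCCs 84.2% of all genes were called for this difference and 83.9% were lower, with the median gene at -1.03. The calls of Peg10, Sgce and H19 were then lost, with Peg10 at log2 -0.12, and Plagl1 was called lower at -0.53. The day 0 mock libraries of clone 7E enter 3 of these 4 comparisons, which are therefore not independent of each other.

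Marker genes of other cell types moved between the same groups. Of 8 markers of primitive endoderm, 6 were tested and all 6 were called lower in clone 7E than in clone 5F at day 0, as were 18.1% of all genes. The summed level of these markers was 110 to 116 CPM in clone 5F at day 0 and 87.3 to 89.5 in its libraries labelled day 4. In clone 7E it was 13.4 to 15.1 at day 0 and 17.7 to 18.5 at day 4, with Afp and Ttr below 1 in each mock library. Of 6 trophoblast markers, 5 were tested and all 5 were called higher at day 4 in clone 7E relative to the median gene, as were 20.7% of all genes (2 higher and 1 lower with own ERCCs). The sum there was 121 to 124 against 79.3 to 82 at day 0, with Elf5 below 1 in each mock library. In clone 5F it was 51.2 to 53 at day 0 and 54.8 to 63.2 in the libraries labelled day 4. The fibroblast and mesoderm markers summed to 3.16 to 11 CPM over the groups, with Col1a2, Col3a1, Lum, Dcn and Postn below 1 in each mock library. Of these markers 3 of 5 tested were called higher at day 4 in clone 7E, beside the same 20.7% of all genes (1 higher and 1 lower with own ERCCs). The sum of 5 neuroectoderm markers was 134 to 142 in clone 5F at day 0, 182 to 194 in clone 7E at day 0 and 243 to 259 in clone 7E at day 4, where 2 were called higher and 2 lower than at day 0 (1 higher and 4 lower with own ERCCs). The embryonic stem cell markers summed to 2980 to 3000 in clone 5F at day 0 and 2660 to 2770 in its libraries labelled day 4. There 4 were called lower and 2 higher, beside 1903 lower and 2099 higher of 16354 genes. In clone 7E they summed to 2900 to 3000 at day 0 and 2370 to 2450 at day 4, with 7 of 8 called lower, as were 3170 of 16333 genes. With own ERCCs 8 of 8 were lower in clone 7E, as were 90.5% of all genes. The part of these in the levels of the imprinted genes was not tested.

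Other imprinted genes were compared as lists. Of 19 further paternally expressed genes, 14 were tested between the clones at day 0, of which 8 were lower and 1 higher in clone 7E (also 8 and 1, of 15 tested, with own ERCCs). Of 22 maternally expressed genes, 20 were tested and 10 were lower and 5 higher (10 and 1 with own ERCCs). Of all genes 18.1% were lower in this comparison, and 36.7% with own ERCCs, by which 45.9% were called. With day in clone 7E, 4 of 13 paternally and 8 of 19 maternally expressed genes were higher and 2 and 3 were lower relative to the median gene. Of all genes 20.7% were higher and 3170 of 16333 were lower in that fit. With own ERCCs, by contrast, all 13 paternally expressed and 17 of the 19 maternally expressed genes were lower, beside 90.5% of all genes. The median log2 change with day in clone 7E was 0.23 for the paternal and 0.09 for the maternal list. Slc38a4, a paternally expressed amino acid transporter on chromosome 15, was lowest in clone 7E at day 0, as Peg10 was. It had a mean of 10315.4 ± 457.6 normalized counts (SD, n = 3) in clone 5F at day 0, 12882.0 ± 442.5 in the libraries labelled day 4, 5627.8 ± 132.9 in clone 7E at day 0 and 9501.5 ± 451.8 at day 4. Grb10, an adaptor of insulin signalling, was instead higher in clone 7E (14615.5 ± 350.5 at day 0) than in clone 5F (11439.9 ± 342.3). Igf2r, the receptor that clears IGF2, had 6177.0 ± 35.1 normalized counts in clone 7E at day 0 and 7872.3 ± 192.2 at day 4, with 5093.3 ± 142.3 and 6439.2 ± 169.3 in clone 5F. The noncoding RNA Rian was higher in clone 5F (11069.2 ± 227.9 at day 0) than in clone 7E (7961.1 ± 286.1). Ube3a ranged from 6953.7 to 8260.4 over the groups, and Gnas from 4363.0 to 5912.1. Of 10 genes that maintain imprints, 6 were lower and 2 higher in clone 7E at day 0, and 4 were lower and 3 higher at day 4 within clone 7E, where all 10 were lower with own ERCCs, as were 90.5% of all genes.

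The genes with a mock pattern most like that of Peg10 over the 12 mock libraries, among 10987 with a mean of at least 100 counts, were Clu (chromosome 14, r = 0.989), which encodes a secreted chaperone, Lrp2 (chromosome 2, r = 0.985), an endocytic receptor, and App (chromosome 16, r = 0.984), the amyloid precursor protein. Lrp2 had means of 10170 normalized counts in clone 5F at day 0, 13000 in the libraries labelled day 4, 4273 in clone 7E at day 0 and 9144 at day 4. Of the members with that many counts, Peg3 had the highest likeness (r = 0.950, rank 81), followed by Sgce (0.866, rank 342), and Mest had the lowest (-0.284). These are Pearson correlations of log2 levels over libraries that form 4 groups, so they mainly rank group means.

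Actinomycin D separates RNAs by how fast they are lost. The median of 10549 protein-coding genes had a half-life of 279 to 281 min in the 4 combinations of clone and day, and 39.7 to 40.2% of the mock level was left at 360 min. The scaling within each time point sets the median gene to nearly the same course in each group. Half-lives are therefore compared between groups only relative to the median gene. Half-lives are from a line through ln(normalized count + 1) against time, and ranges in brackets are from the slope plus and minus its SE. Zrsr1 was lost fastest, in reads that cannot be told apart from those of Commd1 RNA across it. The part of Commd1 RNA in this loss was not tested. In clone 5F at day 0 its mean fell from 314.0 normalized counts in the mock libraries to 54.4 at 120 min, 20.2 at 240 min and 17.1 at 360 min, which is 17.3% ± 2.7 (SD, n = 2), 6.4% ± 0.6 and 5.4% ± 1.6 (n = 3) of mock. At 120 min 15.7% ± 1.1 was left in the 5F libraries labelled day 4, 18.0% ± 1.4 in clone 7E at day 0 and 15.6% ± 2.4 at day 4. At 240 min 11.0% ± 0.6 (n = 3) was left in clone 7E at day 0 and 8.2% ± 0.7 at day 4, above the 6.4% ± 0.6 of clone 5F at day 0, and at 360 min 5.4% to 6.2% was left in the 4 groups. The half-life of Zrsr1 was 85 min (76 to 97) in clone 5F at day 0, 87 min (77 to 100) in the libraries labelled day 4, 96 min (87 to 107) in clone 7E at day 0 and 93 min (83 to 107) at day 4. At most 3.8% of the protein-coding genes had shorter ones. A straight line did not describe its loss: a half-life of 85 min would leave 37.6% at 120 min. Without the mock libraries its half-life was 153 min in clone 5F at day 0, and without the 360 min libraries 62 min.

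**Figure D3:**
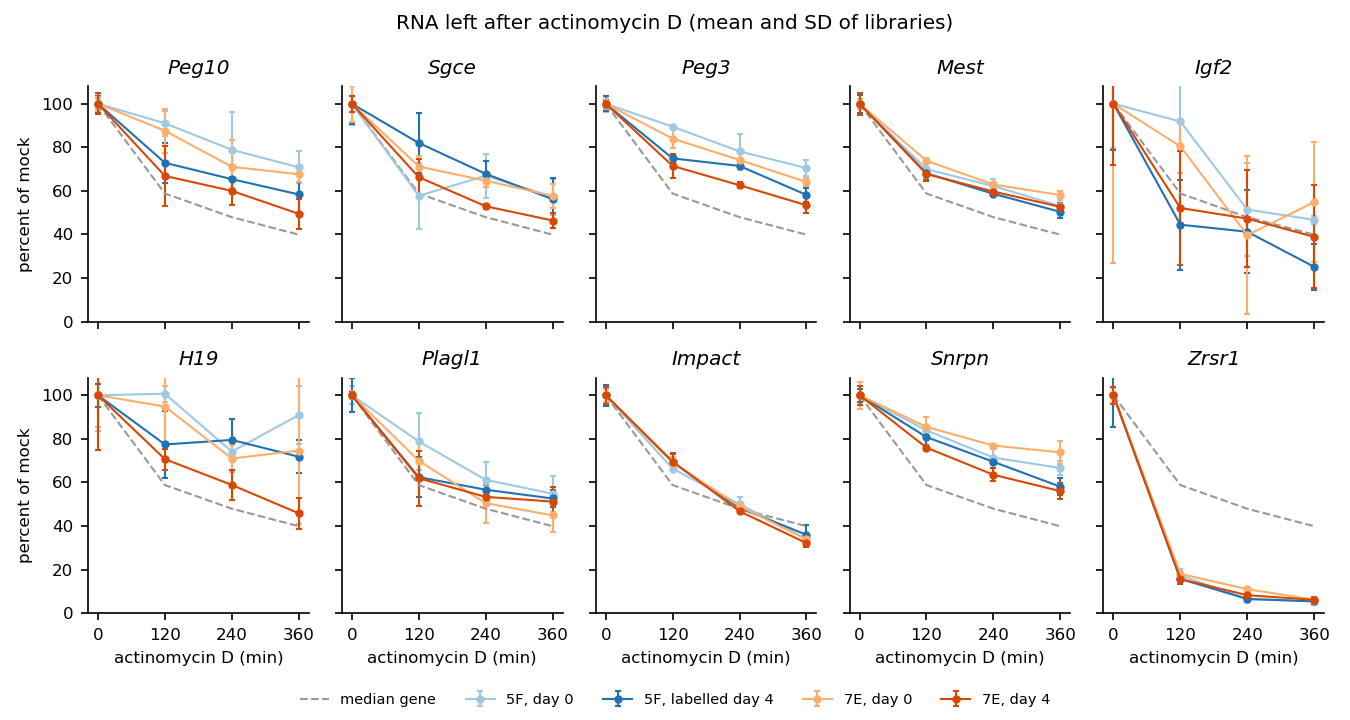
Percent of the mean mock level left after 0 to 360 min of actinomycin D for each member, with points for group means, bars for the SD of libraries and a dashed line for the median protein-coding gene. Zrsr1 falls under 20% by 120 min in each group, and Peg10, Peg3, Mest and Snrpn stay above the median gene. Impact lies above it at 120 min and below it at 360 min. Reads of Zrsr1 include any of Commd1 RNA across it.

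Impact was lost somewhat faster than the median gene by half-life. Its half-life was 236 min (228 to 244) in clone 5F at day 0, 242 min (230 to 255) in the libraries labelled day 4, 232 min (225 to 239) in clone 7E at day 0 and 219 min (213 to 225) at day 4. Mest was slower, with 404, 377, 465 and 406 min in the same order. At 360 min between 50.4% and 58.1% of Mest was left. Its half-life in clone 7E at day 4 was 661 min without the mock libraries. The half-life of Snrpn was 601 min (541 to 676) in clone 5F at day 0, 466 min (437 to 499) in the libraries labelled day 4, 817 min (713 to 958) in clone 7E at day 0 and 433 min (402 to 470) at day 4.

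Peg10 RNA was stable. Its half-life was 694 min (545 to 955) in clone 5F at day 0 and 475 min (401 to 583) in the libraries labelled day 4. In clone 7E it was 598 min (498 to 749) at day 0 and 374 min (318 to 454) at day 4. The point estimate was thus shorter at day 4 in both clones, while the mock level was higher. It rests on the mock libraries: without them the half-lives were 670, 733, 652 and 569 min in the same order, so that of clone 5F was no longer shorter at day 4. At 360 min 67.6% ± 3.8 (SD, n = 3) of the mock level was left in clone 7E at day 0 and 49.5% ± 7.0 at day 4. Peg3 had half-lives of 701 min (621 to 803), 497 min (453 to 550), 570 min (532 to 614) and 412 min (377 to 456) in the order 5F day 0, 5F labelled day 4, 7E day 0 and 7E day 4. Those of Sgce were 520, 436, 488 and 333 min in that order, and those of Plagl1 402, 414, 303 and 386 min. Without the mock libraries Plagl1 had 1012 min in the 5F libraries labelled day 4 and 923 min in clone 7E at day 4, and Sgce had 7676 min in clone 5F at day 0 and 810 min in clone 7E at day 0.

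H19 and Igf2 had too few counts for a firm half-life. That of H19 was 1512 min (888 to 5067) in clone 5F at day 0 and ranged from 806 to 3143 min there with one replicate left out. It was 345 min (299 to 407) in clone 7E at day 4. That of Igf2 in clone 7E at day 0 was 440 min (243 to 2314) and 1854 min without replicate 3.

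**Figure D4:**
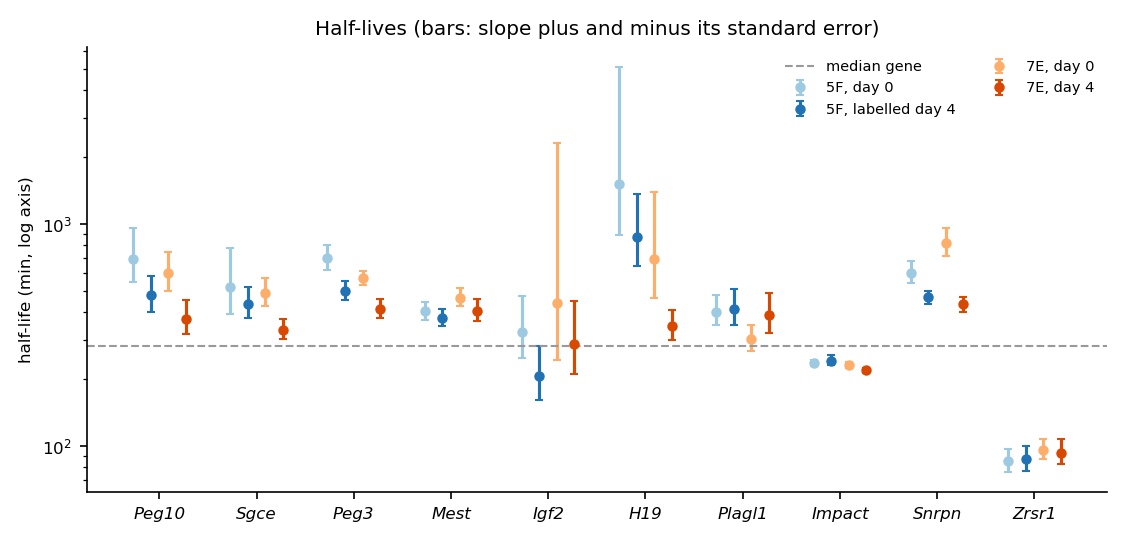
Half-life of each member by clone and day in minutes on a log axis, with bars from the slope plus and minus its standard error and a dashed line for the median protein-coding gene. Zrsr1 lies between 85 and 96 min in the 4 groups, Impact between 219 and 242 min, and Peg10 between 374 and 694 min. Reads of Zrsr1 include any of Commd1 RNA across it.

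No member passed the test for a change in decay. edgeR's interaction of time with day called 0.187% of all genes in clone 5F and 0.804% in clone 7E, and 0 of the 10 members in either. The members' changes ranged from -0.103 to 0.008 log2 per hour in clone 5F, with SEs up to 0.102. In clone 7E they ranged from -0.098 to 0.040, with SEs up to 0.136. A negative value is faster loss at day 4 relative to the median gene. The members' median was -0.042 in clone 7E and that of all genes -0.001. At an unadjusted p under 0.05 there were 1 member and 743 of 19251 genes in clone 5F, and 2 members and 1577 of 18541 genes in clone 7E. DESeq2 called 0 members in clone 5F and 1 in clone 7E, Snrpn (-0.065 log2 per hour), beside 0.239% and 1.45% of all genes. Between the clones at day 0 the test called 0.0318% of all genes and 0 members, with 0 members at an unadjusted p under 0.05 (879 of 18839 genes) and 0 by DESeq2. For the difference in day effect between the clones it called 0% of all genes and 0 members, also with 0 members at an unadjusted p under 0.05 (563 of 20137 genes) and 0 by DESeq2. A change in decay that misses the threshold is not shown to be absent.

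CRAC maps RNA fragments crosslinked to a tagged protein. The authors' pooled relative binding, which is the scaled count of one protein over that of MTR4, SKIV2L and XRN1 together, was listed for 5 of the 10 members. MTR4 is the helicase of the nuclear exosome, SKIV2L that of the cytoplasmic exosome, and XRN1 the 5′ to 3′ exonuclease of the cytoplasm. Mest had 0.605 for MTR4, 0.269 for SKIV2L and 0.126 for XRN1, which are the percentiles 89.2, 50.6 and 6.8 of 7240 mRNAs. Peg10 had 0.395 for MTR4, 0.396 for SKIV2L and 0.209 for XRN1, and Peg3 had 0.454, 0.363 and 0.183. Their XRN1 ratios lay at the percentiles 19.7 and 15.0. Impact had its highest ratio for SKIV2L, 0.466, at the percentile 84.5, with XRN1 at 0.250 (percentile 28.2), and Snrpn for XRN1, 0.390, at the percentile 61.9. On the same denominator AVEN had 0.715 on Mest (percentile 96.9) and 0.677 on Peg10 (percentile 96.3), against 0.321 on Peg3, 0.254 on Snrpn, 0.221 on Impact and a median of 0.295. These are pooled values, so they have no replicate error and their depth is unknown. MTR4, SKIV2L, XRN1 and AVEN carried FLAG-Avi tags in separate Rosa26Cre-ERT2/BirA-V5 mESC lines. The ratios were not corrected here for the RNA level in each line, so they can hold differences in level between lines as well as in binding. Sgce, Igf2, H19, Plagl1 and Zrsr1 were not analysed here for binding.

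**Figure D5:**
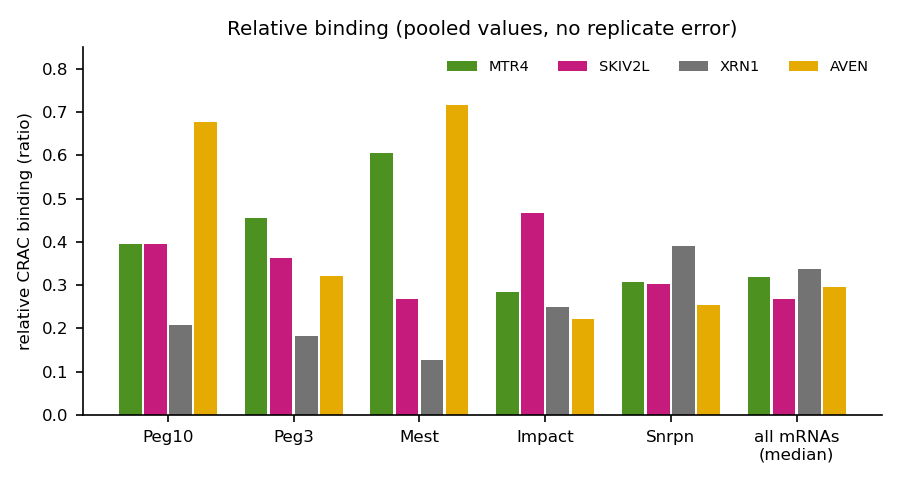
Relative CRAC binding of the 5 members in the authors' table as bars from 0, beside the median of 7240 mRNAs, as the ratio of each protein's scaled count to the sum of those of MTR4, SKIV2L and XRN1. AVEN is not part of that sum. Mest has the highest MTR4 and AVEN bars (0.605 and 0.715), and Peg10 the second highest AVEN bar (0.677).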

How the data were processed

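Ribosomal RNA-depleted, unstranded TruSeq libraries with ERCC spike-ins were sequenced as 50 nt single-end reads. The authors mapped them with STAR to mm10 (GRCm38) plus ERCC sequences, used only unique mappers, and deposited raw counts per Gencode M16 gene. Each of the 47 count columns was matched to its sample by name, with 0 sample columns left over. The labels give 5 ug/ul actinomycin D and the study's methods 5 µM. The binding table deposited by the authors holds ratios made from pooled and scaled CRAC counts. Its RPKM values, also deposited by the authors, come from RNA-seq. The authors' fold changes and adjusted p-values in that table, and the deposited half-lives, were not used.

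Tests used edgeR 4.0.16 and, as an alternative, DESeq2 1.42.0 (R 4.3.3). Symbols, positions and lengths came from Gencode M21, a later release on the same build. Size factors were set within each time point. The 34 ERCCs averaging over 50 counts gave 1 further factor per time point, by which normalized counts were multiplied (the study writes "divided"). Genes were kept by filterByExpr per library group and tested by the quasi-likelihood test. TPM used exonic bases without regard to ambiguous reads. The lowest chi-square per gene between replicate libraries was 2.59, so none was treated as a copy. The tests were run on simulated counts with changes in genes of higher counts, and the half-life fit on simulated exponential loss. These runs do not cover the curved loss of Zrsr1 or genes as rare as Igf2 and H19.

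The 10 members and the gene lists were chosen with earlier results of these data known. Named are the members, Skiv2l and Aven as a check of labels, of the other imprinted genes the 6 with the highest mean CPM over the mock libraries, and the 3 genes most correlated with Peg10. Alternatives were own ERCCs or TMM scaling, DESeq2, no filter, a replicate block, both clones fitted together, libraries left out, for half-lives a smaller pseudocount or no spike-in factor, and for binding a ranking among mRNAs with higher RPKM.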

Additional observations from a re-analysis of the deposited data

Results flagged for a closer look

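In a test of the difference itself, the change in mock level with day differed between the clones for 4 members (edgeR's quasi-likelihood interaction term over the 12 mock libraries). The difference, clone 7E minus clone 5F, was log2 0.91 ± 0.06 (SE) for Peg10, 1.21 ± 0.19 for Sgce, 1.18 ± 0.31 for H19 and 0.50 ± 0.12 for Plagl1. In clone 7E all 3 day 4 libraries lay above all 3 day 0 libraries for each of the 4 genes. In clone 5F the same held for Peg10, H19 and Plagl1, and Sgce overlapped. H19 did not pass the test there (log2 0.28 ± 0.18). The share of all genes whose libraries separate in this way was not counted, and these genes were chosen with such differences known. The separation is therefore a description only. Skiv2l averaged 4163 and 4134 normalized counts at day 0 and in the libraries labelled day 4 of clone 5F, and 969.5 and 387.5 at day 0 and day 4 of clone 7E, and its part in the difference was not tested. With each library scaled to its own ERCCs the calls of Peg10 (-0.12), Sgce and H19 were lost and Plagl1 was called in the opposite direction (-0.53), while 83.9% of all genes were called lower. Without replicate 1 the difference was called for Peg10 and Sgce and not for H19 and Plagl1, and without replicate 2 not for H19. For 11.9% of all genes the same difference was called.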

How the results depend on the processing

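With each library scaled to its own ERCCs, 6 members were called with day in clone 7E, of which 5 were lower, and 6 for the difference in day effect between the clones, all lower. In clone 7E the log2 changes with day that turned were -0.64 for Peg3, -0.99 for Mest, -0.88 for Impact, -0.89 for Snrpn and -0.77 for Zrsr1. Of the differences in day effect, those that turned were -0.12 for Peg10, -0.91 for Peg3, -1.02 for Mest, -0.53 for Plagl1, -0.87 for Impact, -0.84 for Snrpn and -0.96 for Zrsr1. The median gene moved by -1.11 and -1.03 in these fits, so relative to it the members kept the signs given in the report. In clone 5F 3 members were called with own ERCCs, 3 with DESeq2 and 3 with a replicate block, and 3 to 4 with 1 replicate left out. With 1 replicate left out, 7 to 9 were called with day in clone 7E, 5 to 9 between clones at day 0 and 2 to 4 for the difference in day effect. TMM scaling and no filter on low counts changed no call of a member in mock level, and fitting both clones together lost that of Igf2 in clone 5F. DESeq2 called 1 member for decay in clone 7E, and the other alternatives called 0 members in any decay comparison. Same-numbered libraries of a time point deviated with correlations from -0.47 to 0.84, so the replicate numbers were not taken as pairs. In 4 of the 12 sets of same-numbered libraries, all with actinomycin D, every pair correlated by at least 0.19, so those libraries shared deviations across groups, which the SEs of the half-lives leave out. Apart from clone 5F the replicate block changed no member's call. Over the alternatives the number of all genes called ranged in mock level from 1859 to 4425 with day in clone 5F (4002 in the report's test), 4320 to 15290 with day in clone 7E (6551), 4090 to 7851 between clones (6227) and 752 to 14401 for the difference in day effect (2052), with 1859 and 752 reached without replicate 1. For decay it ranged from 2 to 46 in clone 5F (36), 26 to 268 in clone 7E (149), 0 to 32 between clones (6) and 0 to 5 for the difference in day effect (0).

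Half-lives depend on the spike-in factor. Without it, 28 of the 40 values showed no decay. Without the mock libraries 27 of 40 moved by more than their SE, all of Zrsr1 to between 153 and 182 min, and Sgce in clone 5F at day 0 from 520 to 7676 min. A pseudocount of 0.5 moved 0 of 40. Ranked only among mRNAs whose median RPKM reached 5, the MTR4 percentile of Mest was 93.1 and its AVEN percentile 96.8. Depth limits Igf2, H19 and Sgce, whose counts were near or under 100 per library.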
